A study of Mus musculus with 8 samples.

Results

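The genes described here are 10 guidance and adhesion molecules that map vomeronasal axons onto the accessory olfactory bulb: Kirrel2, Kirrel3, Nrp1, Nrp2, Robo1, Robo2, Slit1, Sema3f, Epha5 and Efna5. They were taken by gene symbol from a deposited table of 27532 genes, each symbol matched 1 row, and all 10 passed the filter on low values that left 20305 genes for testing. The table comes from whole vomeronasal organs, the chemosensory organs of the mouse nasal septum, of adult mice either heterozygous (Tex15HET) or knockout (Tex15KO) for Tex15. Each genotype had 4 libraries. Heterozygous replicate 1 was male and 11.4 weeks old, heterozygous replicate 2 was female and 14.6 weeks old, and heterozygous replicates 3 and 4 were female and 11.9 weeks old. Knockout replicate 1 was female and 11.9 weeks old, knockout replicates 2 and 3 were male and 11.9 weeks old, and knockout replicate 4 was male and 12.1 weeks old. No wild-type animals were analysed here, so every control animal carries 1 disrupted Tex15 allele.

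Vomeronasal sensory neurons fall into an apical and a basal layer of the epithelium, and their axons end in the anterior and the posterior part of the accessory olfactory bulb, where axons of like receptor identity gather into glomeruli. Kirrel proteins are adhesion molecules of the immunoglobulin superfamily that bind their own kind on other axons, and they are known for sorting axons among glomeruli. Neuropilins receive secreted class 3 semaphorins, Robo receptors receive Slit proteins, and Eph receptors and ephrins signal on contact between cells. In this system Nrp2 is known from apical axons, Robo2 from basal axons and Efna5 from vomeronasal axons, while their partners act largely in the bulb. The bulb was not part of the tissue sequenced.

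Tex15 itself stood at 2.27 to 2.81 TPM in heterozygous and 0.870 to 1.23 TPM in knockout libraries, without overlap, in the direction of the labels. The limma fit described further on nevertheless did not call it, at a log2 fold change of −1.22 with a standard error of 0.38 (adjusted p = 0.794). TPM is an abundance per transcript length, scaled to the same sum in each library, so levels can be compared between genes. Recovered depths were 17678655 to 26112854 reads per library, and a member had between 169 and 5774 reads in a library. Some libraries stand apart in their cell markers. Omp, the olfactory marker protein of mature sensory neurons, was at 66.6 TPM in heterozygous replicate 1 and at 571 to 943 TPM in the other 7 libraries. Gnai2 and Gnao1, of apical and basal neurons, were at 175 and 17.3 TPM in replicate 1, within the range of the other libraries. Summed markers of basal vomeronasal neurons were highest there, at 314 TPM. Summed markers of main olfactory neurons reached 455 TPM in heterozygous replicate 2 against 36.5 to 212 TPM elsewhere. Those 2 libraries come from animals with earlier numbers than the other 6, which are all numbered in the 7100s, so the earlier numbers hold no knockout. The trailing numbers of the sample titles also differ between those 2 and the other 6, and the labels do not say what they stand for.

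All 10 molecules were detected in every library, and their levels spanned more than an order of magnitude. Averaged over the 8 libraries, Kirrel2 led with 72.9 TPM, followed by Nrp2 with 30.1 TPM, Efna5 with 24.3 TPM, Sema3f with 12.9 TPM and Kirrel3 with 9.59 TPM. Robo1, Robo2 and Slit1 lay at 5.90, 5.87 and 5.44 TPM, and Epha5 and Nrp1 at 3.91 and 3.90 TPM. The steps from Kirrel2 to Nrp2, from Efna5 to Sema3f and from Kirrel3 to Robo1 held in 8 of 8 libraries, with log2 ratios of 1.32 ± 0.40, 0.99 ± 0.34 and 0.73 ± 0.19 (SD over 8 libraries). Other neighbours in this order had mean log2 ratios no larger than their SD. Sema3f was above Kirrel3, Robo2 above Slit1 and Slit1 above Epha5 in 7 of 8 libraries each, with log2 ratios of 0.33 ± 0.39, 0.19 ± 0.38 and 0.40 ± 0.40. Nrp2 was above Efna5 in 6 of 8 libraries, with a log2 ratio of 0.25 ± 0.29, Robo1 was above Robo2 in 3 of 8, and Epha5 was above Nrp1 in 4 of 8. In whole tissue such a level joins cell number and content: fewer cells of a type and less RNA per cell cannot be told apart.

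**Figure D1:**
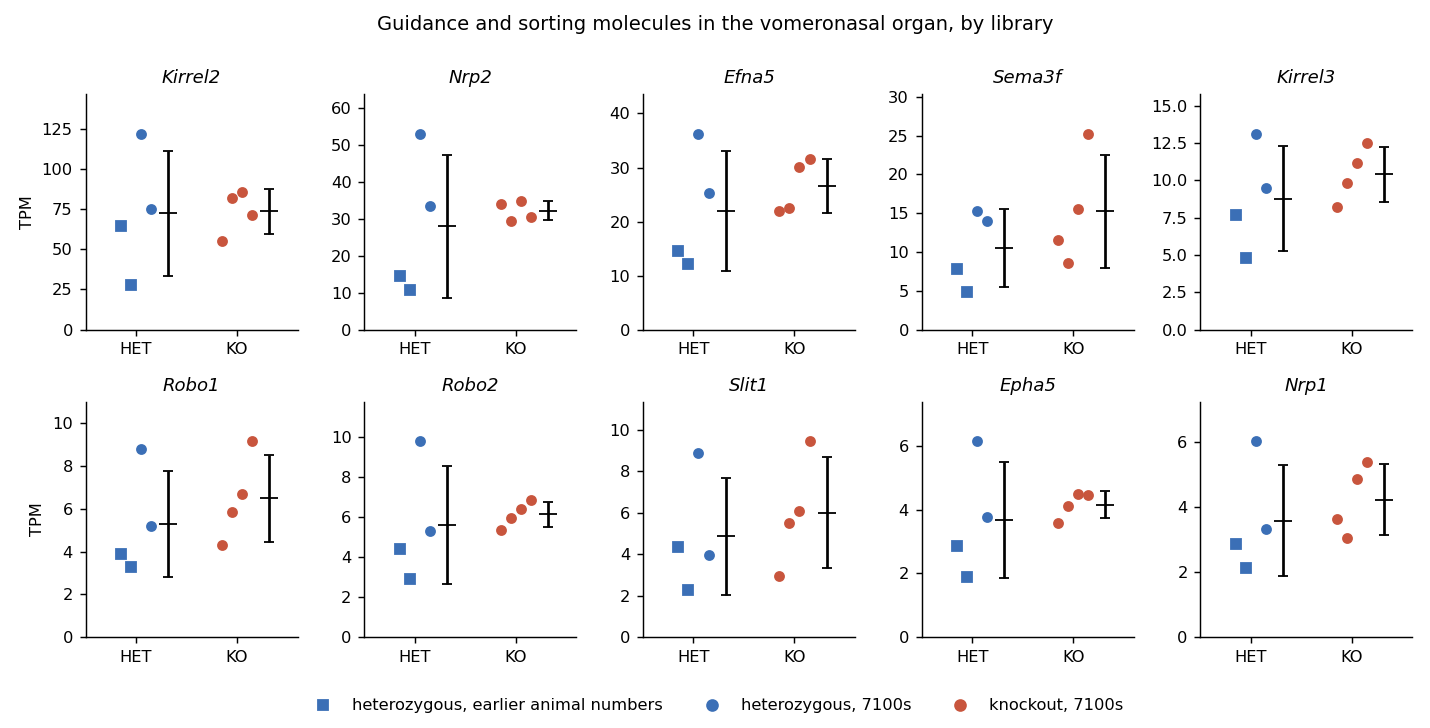
TPM of each of the 10 genes in the 8 libraries, ordered by mean level, with heterozygous (HET) libraries in blue and knockout (KO) libraries in red. Squares mark the 2 heterozygous animals with earlier numbers, the bars beside the points give mean and SD of 4 libraries, and the axes start at 0. In every panel the groups overlap and the lowest point is heterozygous replicate 2.

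The glomerular sorting molecules were at the same order of magnitude in both genotypes. Kirrel2 was at 64.5, 27.7, 122 and 75.0 TPM in heterozygous replicates 1 to 4 and at 55.2, 82.1, 85.7 and 71.3 TPM in knockout replicates 1 to 4. The 4 knockout values lie inside the heterozygous range, whose ends are replicates 2 and 3. Kirrel3, which is known to be expressed mainly by basal neurons, was at 7.65, 4.79, 13.1 and 9.51 TPM in heterozygous and 8.19, 9.82, 11.1 and 12.5 TPM in knockout libraries. Here too the knockout values lay within the heterozygous range. Mean levels over 4 animals were 72.3 ± 38.9 TPM for Kirrel2 and 8.77 ± 3.496 TPM for Kirrel3 with the heterozygous genotype, and 73.5 ± 13.7 and 10.4 ± 1.83 TPM with the knockout (SD).

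Among the receptors that sort axons by zone, Nrp2, the neuropilin that receives Sema3f, had the widest spread between heterozygous animals. Its level was 14.6, 10.8, 53.1 and 33.4 TPM in heterozygous replicates 1 to 4 and 34.1, 29.4, 34.9 and 30.6 TPM in knockout replicates 1 to 4. The 4 knockout libraries were close together, while the heterozygous libraries lay in a low pair, replicates 1 and 2, with replicate 4 inside and replicate 3 above the knockout range. Robo2, the Slit receptor of basal axons, was at 4.38, 2.92, 9.78 and 5.31 TPM in heterozygous and 5.34, 5.96, 6.38 and 6.84 TPM in knockout libraries, again with all knockout values within the heterozygous range. Robo1, the related Slit receptor, ranged from 3.28 to 8.78 TPM in heterozygous and from 4.31 to 9.16 TPM in knockout libraries. Nrp1, which receives Sema3a and is also known from blood vessels, ranged from 2.11 to 6.01 and from 3.03 to 5.37 TPM.

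Epha5, a receptor tyrosine kinase for A-class ephrins, ranged from 1.89 to 6.14 TPM in heterozygous and from 3.59 to 4.48 TPM in knockout libraries, with all knockout values inside. Efna5, its membrane-anchored ligand ephrin-A5, ranged from 12.1 to 36.3 TPM in heterozygous and from 22.0 to 31.6 TPM in knockout libraries. For both, the heterozygous ends were replicates 2 and 3.

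The secreted ligands were spread widely in both genotypes. Sema3f, a repellent for Nrp2-bearing axons, was at 7.79, 4.84, 15.3 and 14.0 TPM in heterozygous replicates 1 to 4 and at 11.6, 8.55, 15.6 and 25.3 TPM in knockout replicates 1 to 4. Slit1, a ligand of Robo receptors, was at 4.34, 2.29, 8.89 and 3.97 TPM in heterozygous and 2.95, 5.51, 6.10 and 9.46 TPM in knockout libraries. Both were highest in knockout replicate 4, which was also the highest library for Robo1. Slit1 in knockout replicate 1 rested on 169 reads, the lowest count of any member.

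The genotypes were compared with limma, with genotype and sex as terms. Fold changes are log2 differences from that of the median tested gene, itself 0.19 higher in the knockout on the deposited scale. None of the 10 members was called at an adjusted p under 0.05, where 0.586% of all tested genes were called. At an unadjusted p under 0.05 the count was 0 members against 3.10% of all genes, and limma-voom on recovered reads called 0 members against 0.233% of genes. The groups overlapped for all 10, whereas they did not overlap for 1.40% of all tested genes. After the median-ratio scaling described further on they overlapped for all 10 as well, against 3.31% of genes without overlap. The highest fold change belonged to Nrp2, at 0.52 with a standard error of 0.45 and a 95% interval from −0.42 to 1.45 (limma adjusted p = 0.9995, unadjusted p = 0.130). Sema3f followed at 0.35, with an interval from −0.62 to 1.31, and Efna5 at 0.25, with an interval from −0.59 to 1.10. Kirrel2 and Slit1 were at −0.14 and −0.15, with intervals from −1.02 to 0.73 and from −1.11 to 0.82. The other 5 lay between 0.04 and 0.08, with intervals inside −0.84 to 0.98. Relative to the median gene, the intervals of Nrp2, Sema3f and Efna5 include a doubling and those of Kirrel2 and Slit1 a halving. These bounds depend on the centring: around the uncentred coefficients the intervals of 9 of 10, all but Kirrel2, include a doubling and those of 0 a halving. For Kirrel3, Nrp1, Robo1, Robo2 and Epha5 the uncentred upper ends were 1.07, 1.17, 1.15, 1.13 and 1.15. Of the 10, 8 lay above the median gene, and their median was 0.07, against 0 over all tested genes by construction. Without the sex term 10 of 10 lay above it, with a median of 0.16, and between males, with 1 heterozygous library, 9 of 10, with a median of 0.10. Between females it was 7 of 10, with a median of 0.05. Leaving out 1 library at a time gave 6 to 9 of 10, with medians from 0.02 to 0.14.

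**Figure D2:**
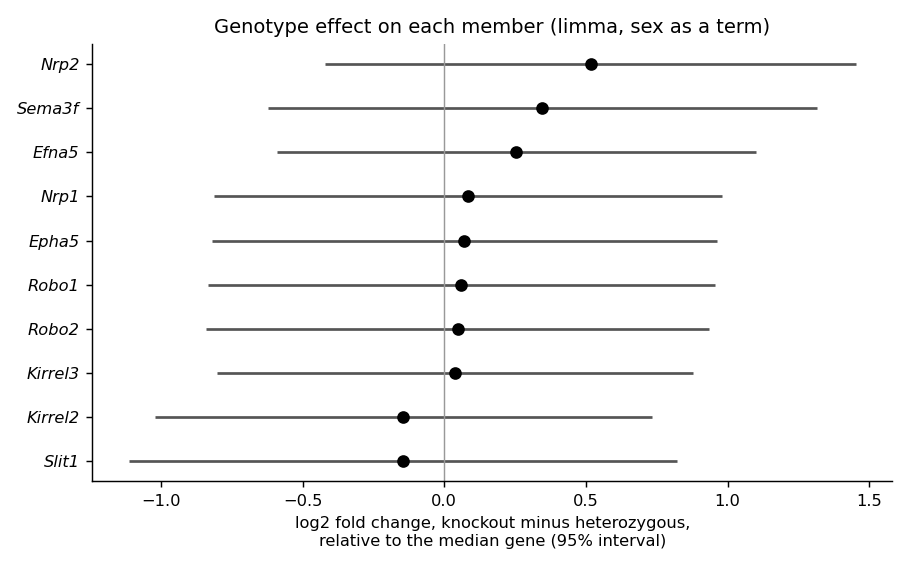
Log2 fold change of knockout over heterozygous libraries for each of the 10 genes, relative to the median tested gene, from the limma fit with sex as a term. Points are estimates, lines 95% intervals and the vertical line 0. All 10 intervals include 0, and Nrp2 has the highest estimate at 0.52.

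The direction of several members rests on which animals enter. With the sex term, heterozygous replicate 1 and knockout replicate 1 each have a weight of 0.5 in the fitted difference, and each other library one of 0.167. Within the animals numbered in the 7100s the Nrp2 fold change was −0.19 in place of 0.52 (limma without a sex term, 2 heterozygous against 4 knockout libraries). In these animals Slit1 was at 0.10, and Robo2, Epha5 and Efna5 at −0.035, −0.0057 and −0.013, each of opposite sign to its value over 8 libraries, and 5 of 10 members lay above the median gene. With the sex term kept in the 7100s, a fit added after the data had been seen, Nrp2 was at 0.02, Kirrel2 at −0.47 and Slit1 at −0.59, and 2 of 10 lay above the median gene. In neither fit was a member called, against 184 of 20593 tested genes without the sex term and 371 of 20593 with it.

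No member was called by sex. The male minus female coefficient ran from −0.48 for Nrp2 to 0.54 for Slit1 (log2, standard errors 0.45 and 0.46). The count of 0 called by limma compares with 0.0492% of all tested genes, and 0 members had an unadjusted p under 0.05, against 2.27% of genes.

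Heterozygous replicate 2 was the lowest library for all 10, a position it held for 53.6% of all tested genes. Heterozygous replicate 3 was the highest for 7 members, and knockout replicate 4 for Robo1, Slit1 and Sema3f. The share of all genes highest in these libraries was not counted. The median-ratio factor of all genes, described further on, was also highest in them, at 0.48 and 0.42 on the log2 scale. Both animals with earlier numbers lay below all 6 others for 8 members, the exceptions being Kirrel2 and Slit1, and for 41.9% of all genes. The 2 heterozygous animals of the 7100s had 3.40-fold as much Nrp2 as the 2 with earlier numbers, and between 1.82 and 2.32-fold as much of each of the other 9. What else differed between these animals was not tested.

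The median gene was low and high in the same libraries. A median-ratio factor, the median over genes of a library's level relative to the geometric mean of the 8 libraries, was −0.59 in heterozygous replicate 2, −0.38 in heterozygous replicate 1 and 0.48 in heterozygous replicate 3 on the log2 scale. The median member deviated by −0.89, −0.33 and 0.65 from its own mean in the same libraries. Dividing by this factor narrowed the ratio of the highest to the lowest library for all 10 members, from between 2.74 and 5.22-fold to between 1.43 and 2.60-fold. The share of all genes that narrowed was not counted. After this division, both libraries with earlier numbers lay below the other 6 for Nrp2 and Efna5, and for 8.75% of all genes. Scaled Nrp2 was 19.1, 16.2, 38.1 and 30.2 in heterozygous replicates 1 to 4 and 35.5, 33.9, 29.3 and 22.9 in knockout replicates 1 to 4, in TPM divided by the factor. Scaled Efna5 was 18.9, 18.1, 26.0 and 22.9 in the heterozygous and 22.9, 26.0, 25.2 and 23.6 in the knockout libraries. The knockout libraries still lay inside the heterozygous range for Nrp2 and Efna5.

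**Figure D3:**
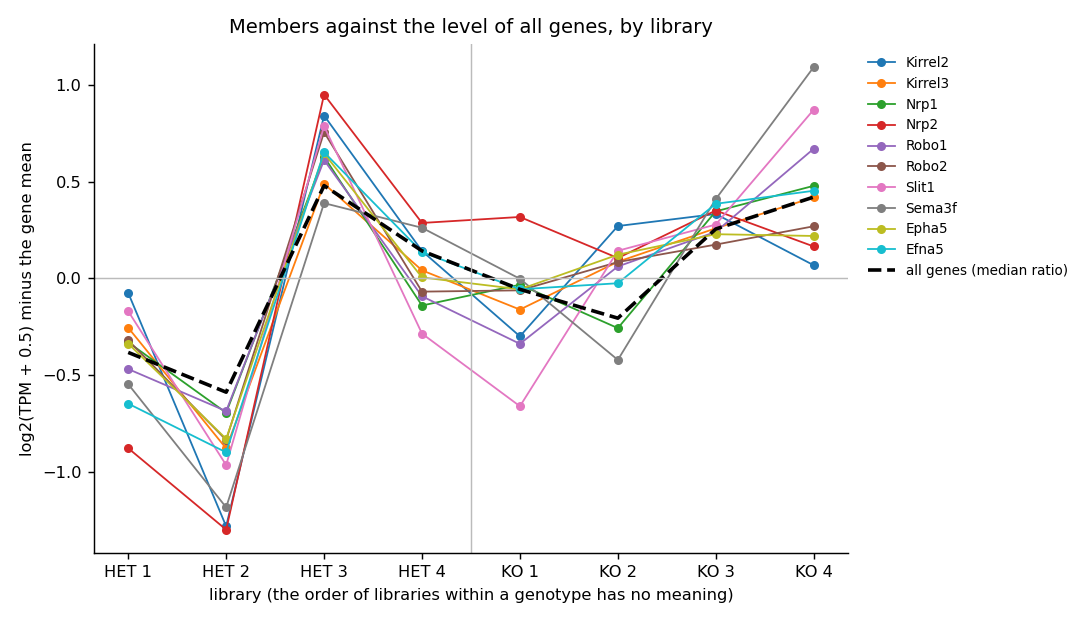
Deviation of each of the 10 genes from its own mean over the 8 libraries, in log2(TPM + 0.5), with the dashed black line giving the log2 median-ratio factor of all genes. The order of libraries within a genotype carries no meaning. Members and the dashed line are low in heterozygous replicates 1 and 2 and high in heterozygous replicate 3.

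Across the 8 libraries the members varied together. All 45 pairs had positive Pearson correlations of log2(TPM + 0.5), from 0.64 to 0.99 with a median of 0.90, and Spearman's rho ran from 0.45 to 0.98. The adjusted p was under 0.05 for 43 pairs by Pearson's r and 35 by Spearman's rho (exact permutation, adjusted over the 45). These p-values are set against no correlation, while all genes share a level within a library. The share of all gene pairs past this threshold was not computed. The median r over all pairs of tested genes was 0.59, and r was at least 0.9 in 22 member pairs (48.9%) against 9.58% of all pairs. By Pearson's r, Robo2 and Epha5, a Slit receptor and an ephrin receptor, were the most alike pair, with r of 0.99 and rho of 0.95 (exact permutation p = 9.92e-05, adjusted 0.000893 and, for rho, p = 0.00114, adjusted 0.00642). By rho, Kirrel3 with each of Robo1, Robo2, Epha5 and Efna5 was more alike, at 0.98. Without the 2 libraries farthest from the median Robo2 level, r of Robo2 and Epha5 was 0.98, and within the 6 animals of the 7100s 0.99. Nrp2 and Slit1 were the least alike, with r of 0.64 and rho of 0.45 (exact permutation p = 0.0824 and 0.267), and 0.33 in the 7100s. Without heterozygous replicate 2, 19 pairs were past the threshold in place of 43. Leaving out the 2 farthest libraries kept all 45 pairs positive and 9 past the threshold, the 7100s kept 45 positive and 3 past it, and median-ratio scaling left 44 positive, 2 past it and a median r of 0.53. Over all pairs of tested genes, 87.6% were positive as deposited, 83.2% in the 7100s and 49.9% after scaling, and the median r was 0.54 in the 7100s and 0 after scaling, against 0.80 and 0.53 for the members. The points share libraries and the level of all genes in them.

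Within the 7100s, Robo1 and Slit1 were the closest pair, with r of 0.99 (exact permutation p = 0.00139, adjusted 0.0417). The lowest values there were those of Sema3f, with r of 0.08 against Kirrel2 and 0.13 against Nrp2 (exact permutation p = 0.901 and 0.725). Over 8 libraries Sema3f and Kirrel2 had r of 0.67 and rho of 0.60 (exact permutation p = 0.0735 and 0.132).

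The sequences before the starts of Robo2 and Epha5 are shown because these 2 genes had the most alike levels by Pearson's r. They are the 250 bases before the start in RefSeq (GRCm38.p6), 5′ to 3′ on the minus strand, at chr16:74411826-74412075 and chr5:84417383-84417632, and each ends where the gene begins in GENCODE M21 (Robo2 at chr16:73891839-74411825, Epha5 at chr5:84054761-84417382, both protein coding). Capitals mark matches to motifs searched on both strands.
Robo2: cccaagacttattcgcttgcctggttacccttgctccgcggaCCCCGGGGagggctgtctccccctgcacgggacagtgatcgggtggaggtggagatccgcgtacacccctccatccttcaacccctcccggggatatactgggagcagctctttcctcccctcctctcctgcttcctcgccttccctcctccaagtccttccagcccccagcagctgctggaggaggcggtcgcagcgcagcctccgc
Epha5: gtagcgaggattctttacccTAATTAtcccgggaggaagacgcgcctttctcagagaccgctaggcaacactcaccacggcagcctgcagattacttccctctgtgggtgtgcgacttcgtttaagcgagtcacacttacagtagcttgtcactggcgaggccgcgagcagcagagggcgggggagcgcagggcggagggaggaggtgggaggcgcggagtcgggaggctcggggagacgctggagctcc

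The Robo2 window holds CCCNNGGG, the core of the site of EBF factors, which are active in olfactory neurons, with its first base at −208 from the start, and 11.8% of all 32851 RefSeq windows of this length hold that core. The Epha5 window holds TAATTA, a core bound by many homeodomain factors, with its first base at −230, against 4.84% of all windows. The 2 windows share none of the 6 motifs searched. The others were the full EBF site, which is the same core with 1 more base on each side, GCCNNNGGC of AP-2 factors, TGACAG of MEIS factors and the E-box CANNTG, held by 0.779%, 13.7%, 15.9% and 66.2% of all windows. The E-box is not marked in capitals, and 5 of the 9 RefSeq starts that matched 7 of the 10 members held it. Apart from it, 1 other of these 9 held a match, TGACAG at −37 before an upstream start of Robo2. The motifs kept for marking and the window were chosen after matches had been seen: a first search covered 300 bases, 50 of them beyond the start, where the EBF core was in 2 of 9 starts, with Kirrel2 added, against 13.7% of all, and TGACAG in 2 of 9, against 19.2% of all. A match here is a run of letters, with no binding measured.

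Ratios of 2 members within a library depend little on the library's scale and were compared between genotypes for 5 pairs. The log2 ratio of Kirrel2 to Kirrel3, the pair of sorting molecules, averaged 2.87 ± 0.32 over the heterozygous and 2.76 ± 0.24 over the knockout animals (SD, n = 4, two-sided exact permutation p = 0.60). For Nrp2 to Robo2, an apical against a basal receptor, it was 2.07 ± 0.46 and 2.31 ± 0.21 (exact permutation p = 0.343, n = 4). The other 3 were Nrp2 to Nrp1 at 2.62 ± 0.55 and 2.82 ± 0.32, Robo1 to Robo2 at −0.05 ± 0.14 and 0.04 ± 0.28, and Epha5 to Efna5 at −2.40 ± 0.19 and −2.52 ± 0.17 (exact permutation p = 0.60, 0.657 and 0.371, n = 4). Adjusted over the 5 ratios every p was 0.657, and the smallest p that 4 against 4 libraries allow is 0.0286. Each difference was smaller than the larger of its 2 SDs, at −0.11, 0.24, 0.20, 0.08 and −0.12 in the order given.

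**Figure D4:**
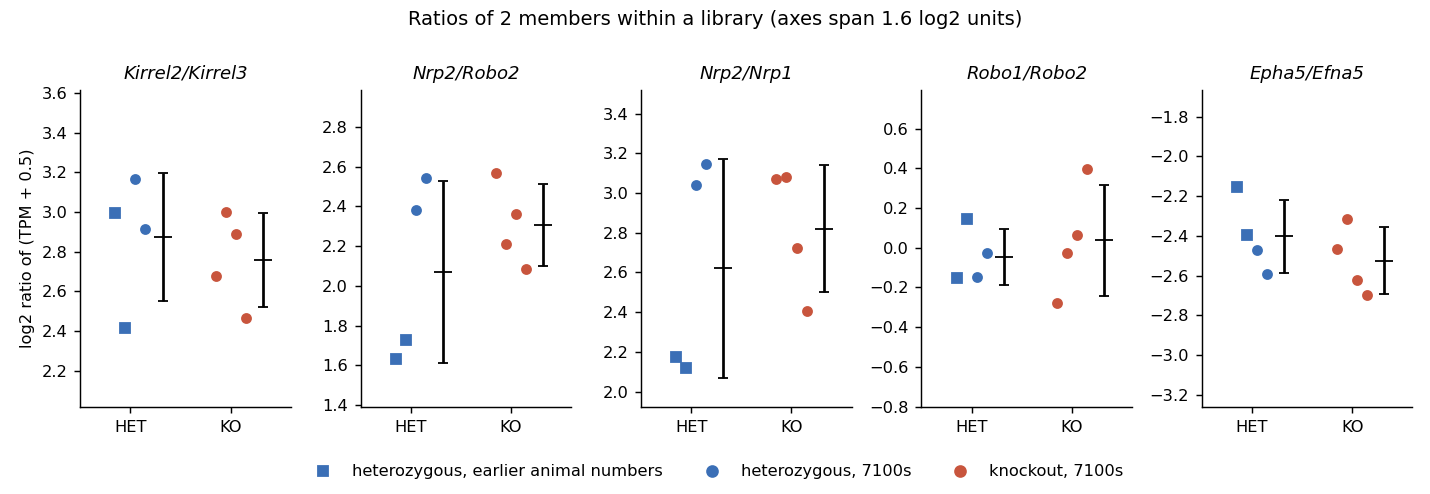
Log2 ratio of 2 members within each library, with HET for heterozygous and KO for knockout libraries and bars for mean and SD of 4. Each axis spans the same number of log2 units but has its own centre. Squares, the 2 heterozygous animals with earlier numbers, lie below all other libraries for Nrp2/Robo2 and Nrp2/Nrp1.

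In both Nrp2 ratios the 2 animals with earlier numbers lay apart from the other 6. Log2 Nrp2/Robo2 was 1.63 and 1.73 in heterozygous replicates 1 and 2 and between 2.08 and 2.57 in the other 6 libraries. Log2 Nrp2/Nrp1 was 2.17 and 2.12 in the same 2 and between 2.41 and 3.15 in the others. Within the 7100s the knockout minus heterozygous differences were −0.16 and −0.27 (exact permutation p = 0.467 and 0.333, smallest possible 0.0667). Within each sex they had the opposite sign, at 0.35 and 0.30 between females and 0.59 and 0.56 between males, with 1 library in 1 genotype and no test. Each of these comparisons within a sex sets animals of the 7100s against groups that hold an animal with an earlier number. Kirrel2/Kirrel3 was at −0.28 in the 7100s (exact permutation p = 0.20), against −0.11 over 8 libraries. Kirrel2/Kirrel3, Robo1/Robo2 and Epha5/Efna5 showed no such separation of the 2 animals with earlier numbers.

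Marker sums of other cells also differed between these libraries. All 150 pairs of a member and a marker sum were looked at, and the 2 plotted were picked from them by their values, so no correlation or p is given for them. Fibroblast markers (6 genes, collagens among them) summed to 1479 and 1255 TPM in heterozygous replicates 1 and 2, to 6027 and 4277 TPM in heterozygous replicates 3 and 4, and to 5162, 3591, 4738 and 2138 TPM in knockout replicates 1 to 4. Nrp2 was lowest in the 2 libraries where this sum was lowest and highest where it was highest. Endothelial markers (6 genes), in which Nrp1 is also known, summed to between 19.1 TPM, in heterozygous replicate 2, and 61.7 TPM, in knockout replicate 4. Main olfactory neuron markers (4 genes) summed to 157, 455, 70.1 and 212 TPM in the heterozygous and 144, 93.1, 71.5 and 36.5 TPM in the knockout libraries, with the highest sum where all 10 members were lowest. Other sums differed too: nasal gland markers reached 195058 TPM in heterozygous replicate 1 against 68036 to 154054 TPM elsewhere, and erythrocyte markers 20930 TPM in heterozygous replicate 2 against 3900 to 14334 TPM elsewhere. Smooth muscle and pericyte markers were at 202 TPM in heterozygous replicate 2 and at 469 to 1064 TPM elsewhere. None of these markers was at 0 in all libraries and none was called by genotype in limma. Their part in the members' levels was not tested.

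**Figure D5:**
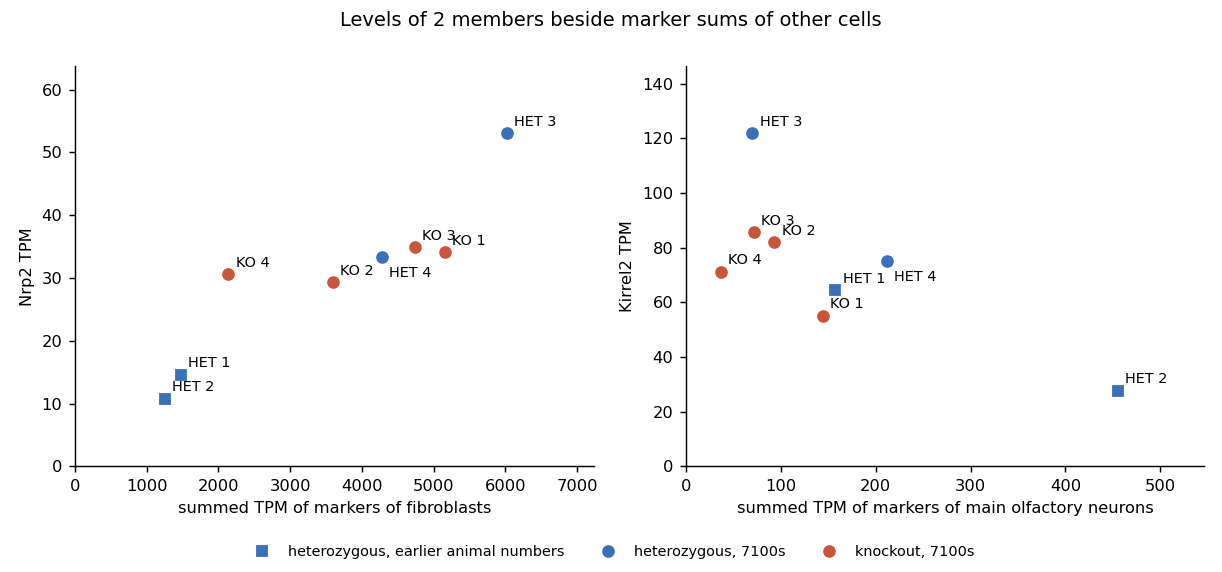
Left, Nrp2 TPM against the summed TPM of 6 fibroblast markers. Right, Kirrel2 TPM against the summed TPM of 4 markers of main olfactory neurons. Each point is 1 library (HET heterozygous, KO knockout), axes start at 0, and heterozygous replicate 2 has the lowest Nrp2 and Kirrel2 and the highest main olfactory neuron sum.

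The members were also set against the G proteins of the vomeronasal layers. Gnai2 of the apical and Gnao1 of the basal layer ranged from 114 to 302 and from 11.5 to 30.7 TPM, with heterozygous replicate 2 lowest and heterozygous replicate 3 highest for each. Gnai2 was most of their sum in every library, so the sum mainly follows Gnai2, also for members of basal neurons. As a percentage of the sum of Gnai2 and Gnao1, Kirrel3 averaged 3.76 ± 0.310 over the heterozygous and 3.90 ± 0.221 over the knockout animals (SD, n = 4). Efna5 was 9.21% ± 1.44 and 9.93% ± 0.247 of that sum, and Robo2 2.35% ± 0.450 and 2.32% ± 0.218. Kirrel2 was at 29.6% ± 6.66 and 27.8% ± 5.31, Nrp2 at 10.95% ± 3.75 and 12.4% ± 2.56, and Slit1 at 2.04% ± 0.554 and 2.18% ± 0.678. Sema3f was at 4.35% ± 0.473 and 5.54% ± 1.81, with 7.99% in knockout replicate 4.

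Of 117 other symbols of these pathways listed in 7 families, 113 were matched in the table, and 97 of these were tested. In limma 0 were called, 0 had an unadjusted p under 0.05 and limma-voom called 0, against 0.586%, 3.10% and 0.233% of all genes. The 97 genes' median lay 0.17 above the median gene, with 80 above it and 17 at or below. At an unadjusted p under 0.05, 10 of the 97 (10.31%) passed without heterozygous replicate 3, against 5.83% of all genes in that fit. The count was 9 (9.28%) between males, against 7.89% of all genes, where heterozygous replicate 1 was the only heterozygous library. It was 4 (4.12%) with the library number as a block and 3 (3.09%) with median-ratio scaling, against 4.91% and 5.42%. Markers of several other cell types lay above the median gene as well, with 6 of 6 for fibroblasts, 6 of 6 for endothelium, 5 of 5 for ensheathing glia and 5 of 5 for neuronal progenitors, while 0 of 4 did for basal vomeronasal neurons, 0 of 4 for main olfactory neurons, 0 of 2 for olfactory supporting cells and 1 of 4 for immature neurons. The count was 5 of 5 for erythrocytes. The lists in between were smooth muscle and pericytes with 3 of 5, immune cells with 3 of 5, cartilage with 3 of 4, nasal glands with 3 of 4, and apical and mature vomeronasal neurons with 2 of 3 each. Their part in the guidance genes' values was not tested. Within the 7100s 58 of 97 lay above the median gene and the median was 0.04, and with the sex term kept there 47 of 97 did and the median was −0.0041. Semaphorins and plexins had a median of 0.24, with 25 of 27 above the median gene. In that family Plxnb2, a receptor of class 4 semaphorins, had the highest level at 67.9 TPM, and Sema3b, a secreted class 3 semaphorin, had the smallest p, with 10.8 ± 6.35 and 14.5 ± 2.67 TPM (SD, n = 4) and a fold change of 0.69 (limma unadjusted p = 0.0552, adjusted 0.9995). Among the remaining Slits and Robos 3 of 3 tested lay above the median gene. Slit2 and Slit3, the other Slit ligands, were at 5.96 and 9.58 TPM over all libraries, with fold changes of 0.62 and 0.53 and intervals from −0.33 to 1.57 and −0.58 to 1.64.

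Among ephrins and Eph receptors 12 of 16 lay above the median gene, with a median of 0.11. Efna3, an A-class ephrin and the most abundant gene of this family at 47.8 TPM, was at −0.33 with an interval from −1.05 to 0.39, and the receptors Epha2 and Ephb6 were at 0.63 and 0.39. Netrins and their receptors had a median of 0.11 over 10 genes, led by the netrin receptor Unc5b with 24.3 TPM, and Neo1 and Ntn1 had fold changes of 0.39 and 0.37. In the family of Kirrel and related adhesion molecules 13 of 17 lay above the median gene. There Cntn4, a contactin known for sorting olfactory axons, was the most abundant at 67.1 TPM with a fold change of −0.09, while Kirrel, the remaining Kirrel gene, and Ncam1 were at 0.53 and 0.27. Teneurins, latrophilins and FLRT proteins had a median of 0.27 over 9 genes, with Flrt1 at 32.9 TPM and Flrt2 and Tenm3 at 0.48 and 0.40. Growth cone signal relays had a median of 0.16 over 15 genes, with Dpysl3, a collapsin response mediator, at 66.3 TPM and Abl1 and Srgap3 at 0.36 and 0.29.

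The genes whose levels followed single members most closely over the 8 libraries were the highest of 20305 by Pearson's r, so no p is given. For Kirrel2 they were Gng3, Zfp449 and Ccm2, with r of 0.98, 0.98 and 0.97. For Kirrel3 they were Btbd3, Kif5c and Klf8, with r of 0.998, 0.997 and 0.996. Loxl3, Fat4 and Dipk2a followed Nrp2, with r of 0.997, 0.99 and 0.99, and Thsd7b, Epha5 and Pcdhb7 followed Robo2, each with r of 0.99. No gene appeared in more than 1 of these 4 sets.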

How the data were processed

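Polyadenylated RNA of dissected vomeronasal organs was sequenced from strand-specific libraries, per the labels' protocols. The authors deposited TPM values, 1 column per animal, each summing to 1000000. Per the submitters' processing notes, Trim Galore 0.6.5, cutadapt 5.1, STAR 2.7.11b, deepTools 3.5.5 and GRCm38 were named. The counting program is not given in the sources used here. A gene entered the tests if its 8 libraries averaged 0.5 TPM or more, and log2(TPM + 0.5) was fitted with limma 3.58.1 (R 4.3.3, eBayes with trend, genotype and sex as terms), with Benjamini-Hochberg adjustment. Fold changes and intervals are relative to the median gene, while p-values belong to the fitted coefficient before this centring, and the intervals leave out the centring's own error. The log2(TPM + 0.5) scale understates changes of low genes.

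Reads were recovered by multiplying TPM by GENCODE M21 exon lengths. Between 97.3% and 97.9% of values under 30 reads came within 0.01 of a whole read, and 94.6% of genes were recovered. Depths cover counting error only. Ratios and correlations were tested by enumerating all permutations (ranks from scipy 1.17.1). The fit was tested on simulated data, where it called large changes but missed most doublings and halvings. Libraries are separate animals by label, and p-values measure the spread between them. Same-numbered libraries of the 2 genotypes did not deviate together, with correlations of −0.06, 0.03, 0.10 and 0.00.

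The members and gene lists were chosen with earlier results of these data known. Named genes were the members, Tex15, in each family the most abundant gene and the 2 with the smallest p, the 3 genes most alike to Kirrel2, Kirrel3, Nrp2 and Robo2, the markers Omp, Gnai2 and Gnao1, and summed marker lists. Trpc2, Ugt2a1, Dcc, Epha6 and Epha8 were not analysed here.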

Additional observations from a re-analysis of the deposited data

Results flagged for a closer look

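Summed markers of olfactory supporting cells (Cyp2a5 and Cyp2g1) stood at 3813 TPM in heterozygous replicate 2, against 651 to 1025 TPM in the other heterozygous and 713 to 1210 TPM in the knockout libraries, a distance from the other 3 of its group beyond the 95% limit for 4 samples. It is the library in which all 10 members were lowest. Of 72 groups of 4 examined in this way it was the 1 that passed. Chance gives about 1 in 20, so 1 pass among 72 is not more than chance would give.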

How the results depend on the processing

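The counts of members and of other guidance genes called by genotype were 0 under every alternative run, including limma-voom on recovered reads, scaling to the sum of Gnai2 and Gnao1 (added after the data had been seen) and leaving out each library. The count of members called by sex was 0 with the other pseudocounts, median-ratio scaling, no filter, the replicate block and each library left out. At an unadjusted p under 0.05, Nrp2 passed without heterozygous replicate 3, where 5.83% of all genes passed, and no other member did in any fit. Between males, with 1 heterozygous library, the Nrp2 fold change was 0.62. Fits within 1 sex have 1 library in 1 genotype, which is assumed to vary like the others. Over all genes, 119 were called, 72 with no filter, 184 in the 7100s, 371 there with the sex term kept (added after the data had been seen), 407 between males and 46 with limma-voom. Without 1 library the count ran from 83 to 254, with 202 without heterozygous replicate 2, 254 without heterozygous replicate 4 and 190 without knockout replicate 4. With the library number as a replicate block 128 were called. The numbers are shared labels only, since 2 of 8 libraries correlated best with their own number, and the block changed no call among the members. Median-ratio scaling called 155, 28 higher and 127 lower, against 43 and 76 without it, and robust eBayes called 38 higher and 107 lower. Scaling to Gnai2 and Gnao1 gave 27 and 125, and the fit with the sex term in the 7100s 92 and 279. The split was 31 and 153 in the 7100s without it, 264 and 143 between males, 57 and 71 with the block, and 5 and 41 with limma-voom.

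Without the sex term Kirrel2 was at 0.036 and Slit1 at 0.17. In the 7100s Nrp2 was at −0.19, Robo2 at −0.035, Slit1 at 0.10, Epha5 at −0.0057 and Efna5 at −0.013, and with the sex term kept there Kirrel3 was at −0.10, Robo1 at −0.27, Robo2 at −0.082, Sema3f at −0.0038, Epha5 at −0.058 and Efna5 at −0.13. Robo1 was at −0.21 between females and Slit1 at 0.14 between males. Without 1 library at a time the members ranged from −0.31 to −0.017 for Kirrel2, −0.028 to 0.088 for Kirrel3, 0.042 to 0.15 for Nrp1, 0.33 to 0.66 for Nrp2, −0.21 to 0.33 for Robo1, −0.025 to 0.14 for Robo2, −0.43 to 0.14 for Slit1, 0.22 to 0.45 for Sema3f, 0.0020 to 0.14 for Epha5 and 0.052 to 0.46 for Efna5. Robo1 changed sign without heterozygous replicate 1, Slit1 without knockout replicate 1, and Kirrel3 and Robo2 without heterozygous replicate 2 or knockout replicate 2, at −0.00038 and −0.0075 without the latter.

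In the 7100s the ratio differences were −0.16 for Nrp2/Robo2, −0.27 for Nrp2/Nrp1, 0.0076 for Epha5/Efna5, −0.28 for Kirrel2/Kirrel3 and 0.13 for Robo1/Robo2. Between females they were −0.15 for Kirrel2/Kirrel3, 0.35 for Nrp2/Robo2, 0.30 for Nrp2/Nrp1, −0.27 for Robo1/Robo2 and 0.022 for Epha5/Efna5, and between males −0.21, 0.59, 0.56, 0.30 and −0.39. Without 1 library they ranged from −0.27 to −0.017 for Kirrel2/Kirrel3, 0.089 to 0.39 for Nrp2/Robo2, 0.034 to 0.38 for Nrp2/Nrp1, −0.036 to 0.19 for Robo1/Robo2, negative without knockout replicate 4, and −0.19 to −0.038 for Epha5/Efna5. The 43 pairs of members past the threshold became 2 after median-ratio scaling, 3 in the 7100s and 9 without the 2 farthest libraries, and ranged from 19, without heterozygous replicate 2, to 44 without 1 library. The cause of these changes was not tested. Tex15, at −1.22 and without overlap, was not called, so the absence of a call does not show the absence of a difference.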
